A study of Mus musculus with 16 samples.

Results

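The erythroid and globin genes described here are Alas2, Hba-a1, Hbb-b1, Hbb-bt, Slc4a1, Epb4.2, Ahsp, Gata1 and Klf1, a list of 9 names. They were chosen by name with an earlier analysis of these arrays known, in which erythroid genes stood higher in tumours given 5-aminolevulinic acid (ALA) than in untreated tumours. The members were thus selected on the ALA against control difference, which is described below with no test. Every non-control probe that carries 1 of these names was taken, which gave 12 probes of 41135 and 8 gene names of 30010, since Hbb-bt has no name of its own in the files and its transcript is listed under probes named Hbb-b1. The globins, Alas2, Slc4a1 and Klf1 (5 genes) were detected (well above background) on 4 or more arrays of the 16 and entered the tests over 15409 genes. Ahsp was well above background on 2 arrays, and Epb4.2 and Gata1 on 0.

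The arrays measured B16-BL6 melanomas, tumours of a transplantable mouse melanoma line, from male C57BL/6J mice aged 8 weeks, with 4 tumour preparations in each of 4 groups. Control tumours were untreated; ALA tumours received ALA at 50 mg per kg by local administration; X-ray tumours received fractionated irradiation; ALA plus X-ray tumours received the same ALA before the irradiation fractions. The series asks what ALA, the first precursor of heme synthesis, adds to radiotherapy. The tumours were whole preparations kept in RNAlater, so each array holds RNA of the melanoma cells and of whatever blood and host tissue the preparation contained. The X-ray dose and the time of sampling are not given in the sources used here. Nothing states whether each preparation came from its own animal, so p-values measure the spread between preparations.

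Red cell precursors are defined by a small set of abundant products. Alpha and beta globin chains assemble with heme into hemoglobin, Alas2 is the erythroid form of the enzyme that makes ALA itself, and Slc4a1 (band 3) and Epb4.2 (protein 4.2) belong to the red cell membrane. Gata1 and Klf1 are the transcription factors that switch these genes on in nucleated precursors; reticulocytes, which have lost the nucleus, still carry globin messenger RNA and circulate in the blood.

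The globin probes are shown because their sequences decide which globin genes can be told apart. Of the 4 probes named Hbb-b1, the RefSeq accessions attached to the leading probe (the one with the highest mean level, chromosome 7, 110962000 to 110962059 in mm9, minus strand) belong to Hbb-bs and Hbb-bt. The probe that overlaps it by 29 bases (chromosome 7, 110962031 to 110962090) lists the same pair, and a further probe lists Hbb-b2 as well. None is specific to 1 adult beta globin gene. In the beta globin sequences, capitals mark the 29 shared bases. The Hba-a1 probe (chromosome 11, 32183775 to 32183956, plus strand, its 60 bases spread over 182 bases of the genome) lists both Hba-a1 and Hba-a2. It overlaps the probe named Hba-a2 by 30 bases with 3 differences, in capitals: T37C, C49T and C52T, counted from the 5′ end of the Hba-a1 probe, with the Hba-a1 base first.
Hbb-b1, leading probe: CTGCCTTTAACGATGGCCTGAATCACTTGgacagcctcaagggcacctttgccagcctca
Hbb-b1, overlapping probe: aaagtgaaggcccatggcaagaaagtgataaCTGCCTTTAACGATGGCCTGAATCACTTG
Hba-a1: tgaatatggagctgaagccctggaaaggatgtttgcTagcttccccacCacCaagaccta
Hba-a2: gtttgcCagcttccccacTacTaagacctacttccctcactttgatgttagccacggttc

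Levels below are the log2 processed signal minus the log2 75th percentile of the same array, so 0 is the 75th percentile and a step of 1 is a doubling. They are compared between arrays of 1 probe only.

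The beta globin level was highest in ALA tumours and lowest in ALA plus X-ray tumours, with X-ray tumours spread across the whole range. The leading Hbb-b1 probe read 6.76, 5.47, 5.24 and 5.22 in control replicates 1 to 4 (mean 5.68, SD 0.73). It read 8.12, 8.55, 7.54 and 7.49 in ALA (mean 7.93, SD 0.51), so every ALA array lay above every control array. X-ray tumours read 3.99, 7.45, 6.44 and 8.83 (mean 6.68, SD 2.04). Among them replicate 4 was the highest of all 16 arrays and replicate 1 the second lowest. ALA plus X-ray tumours read 3.93, 4.85, 5.04 and 5.09 (mean 4.73, SD 0.54), below all control and all ALA arrays. The 4 Hbb-b1 probes moved as 1: their pairwise correlation over the 16 arrays was 0.984 to 0.999.

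Hba-a1, the alpha globin partner chain, had the same order of arrays at both ends. It read 5.92, 4.67, 4.44 and 4.46 in control (mean 4.87, SD 0.71) and 7.65, 8.26, 6.51 and 6.64 in ALA (mean 7.27, SD 0.84), again with no overlap. X-ray tumours read 3.32, 6.73, 5.65 and 8.42 (mean 6.03, SD 2.14), and ALA plus X-ray tumours 3.00, 3.92, 3.87 and 4.33 (mean 3.78, SD 0.56). The 6 globin probes together, Hba-a2 included, held 0.0875% to 0.251% of the summed array signal of control tumours and 0.394% to 1.03% of that of ALA tumours. For X-ray tumours the share was 0.037% to 1.23%, and for ALA plus X-ray tumours 0.0304% to 0.0861%. No spot was saturated.

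Ahsp, the chaperone that holds free alpha globin, was well above background on 2 arrays, ALA replicate 2 at -3.48 and X-ray replicate 4 at 0.04. These are the 2 arrays with the highest Hbb-b1 level. The other 14 arrays read -6.63 to -4.89, all not well above background. Against the dimmest signals that count as well above background in control arrays, the X-ray mean as read was 1.72-fold higher, which rests on replicate 4 alone. It is no lower bound, since the other X-ray arrays were not well above background either.

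Alas2, whose product makes ALA in red cell precursors, was measured on all 16 arrays. It read 1.77, -0.16, -0.91 and 0.17 in control (mean 0.22, SD 1.13) and 3.28, 4.02, 1.75 and 1.10 in ALA (mean 2.54, SD 1.35), where control replicate 1 overlapped the lower ALA arrays. X-ray tumours read -1.81, 2.21, 0.61 and 4.22 (mean 1.31, SD 2.55), and ALA plus X-ray tumours -2.59, -1.13, -1.87 and -1.06 (mean -1.66, SD 0.72). All ALA plus X-ray arrays lay below all control and all ALA arrays, and X-ray replicates 1 and 4 again stood at opposite ends.

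Slc4a1, the anion exchanger of the red cell membrane, was dimmer and measured on 9 arrays. It read -1.48, -0.72, -2.87 and -2.91 in ALA, the only group in which all 4 arrays were well above background. In control it read -2.47 on replicate 1 and -5.36, -4.34 and -3.65 on the others, which were not well above background. X-ray tumours read -5.76 (not well above background), -1.64, -3.19 and 1.19, and ALA plus X-ray tumours -4.52, -3.51, -3.90 and -4.39, of which replicate 2 alone was well above background. Epb4.2, the membrane protein that binds band 3, had 2 probes between -6.61 and -4.58, not well above background on any array.

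Of the transcription factors, Gata1 (1 probe on 10 spots) read -6.58 to -5.39 and was not well above background on any array, so these arrays give only an upper bound for it. Klf1 was measured on 10 arrays. It read -3.23, -4.12, -4.14 and -3.25 in control, -3.53, -3.63, -3.63 and -3.43 in ALA, and -3.36, -3.21, -4.18 and -2.28 in X-ray. ALA plus X-ray tumours read -4.76, -4.73, -3.79 and -4.36, of which replicate 3 alone was well above background. Klf1 did not separate ALA from control arrays, and its highest array was X-ray replicate 4.

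**Figure D1:**
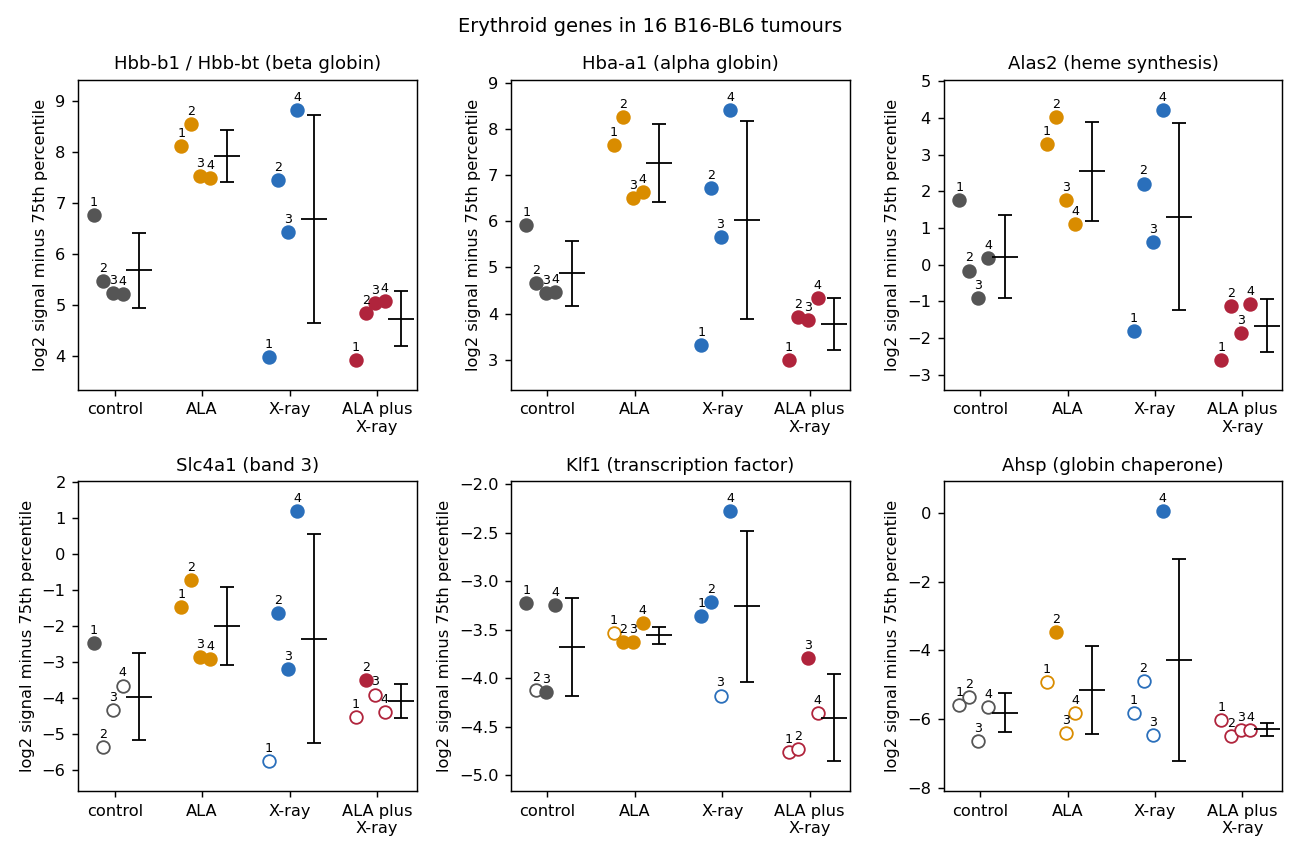
Scaled log2 signal of the leading probe of 6 erythroid genes on each of the 16 arrays, by group; digits are replicate numbers, open circles were not well above background, and bars are the group mean and SD (n = 4). Each panel has its own vertical axis. The 4 ALA plus X-ray arrays lie below all 4 ALA arrays in each of the Hbb-b1, Hba-a1, Alas2, Slc4a1 and Klf1 panels, while X-ray tumours run from 3.99 to 8.83 for Hbb-b1.

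Members passed the test in 1 comparison, ALA plus X-ray against ALA, which asks what irradiation changed in ALA-treated tumours. The 4 ALA arrays of this comparison also took part in the choice of the members, which favours lower values beside them, so these calls are not independent of the choice. Hbb-b1 fell by 3.20 on the log2 scale (SE 0.75, 95% interval -4.79 to -1.60, 9.18-fold, limma adjusted p = 0.0104). Hba-a1 fell by 3.49 (SE 0.80, 95% interval -5.20 to -1.77, 11.2-fold, limma adjusted p = 0.00978). Alas2 fell by 4.2 (SE 1.03, 95% interval -6.41 to -1.99, 18.4-fold, limma adjusted p = 0.013). Thus 3 of the 8 measured members, of 5 tested, passed, where 13.4% of all genes were called lower. With arrays scaled to their median, the lower calls over all genes went from 2064 to 536 and these 3 still passed.

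The other members differed in the same direction without passing. Slc4a1 had a log2 difference of -2.09 (SE 1.09, limma adjusted p = 0.168) and Klf1 of -0.85 (SE 0.34, limma adjusted p = 0.0819). All 5 tested members had ALA plus X-ray arrays that did not overlap the ALA arrays, on the lower side; 11.4% of all genes did so, and since the choice favours this outcome nothing is read from the count. Of the 9 arrays on which Slc4a1 was detected, 7 were ALA or X-ray arrays. In ALA plus X-ray, Slc4a1 and Klf1 were each well above background on 1 array, so their separation rests on dim values. Each slide held 1 array of every group, and within slides 1 to 4 the Hbb-b1 difference was -4.2, -3.7, -2.5 and -2.4, that of Alas2 -5.88, -5.14, -3.62 and -2.16. Each group always took the same place on a slide, and place and group cannot be told apart.

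ALA plus X-ray tumours were then set against X-ray tumours, whose arrays took no part in the choosing difference. Here 0 of the 5 tested members passed in limma, where 2.07% of all genes were called. An unadjusted limma p under 0.05 was found for 4 of the 5, and for 3569 of all 15409 genes. Hbb-b1 had a log2 difference of -1.95 (SE 0.75, 95% interval -3.54 to -0.36, limma adjusted p = 0.146), and Hba-a1 of -2.25 (SE 0.80, limma adjusted p = 0.122). Alas2 had -2.97 (SE 1.03, limma adjusted p = 0.116), Slc4a1 -1.73 (SE 1.09, limma adjusted p = 0.351) and Klf1 -1.15 (SE 0.34, limma adjusted p = 0.0802). The result turned on X-ray replicate 1. Without it 3 members fell, with log2 differences of -2.85 for Hbb-b1 (limma adjusted p = 0.00602), -3.16 for Hba-a1 (0.00782) and -4.01 for Alas2 (0.0151). That fit called 1094 of 15409 genes, against 319 with all arrays. Replicate 1 had the lowest Hbb-b1 level of the X-ray arrays, so leaving it out makes the difference larger. Without X-ray replicate 4 the median difference over the 8 measured members moved from -1.84 to -0.70. Of the 8, 2 were not well above background in either group. With all arrays kept and dim groups set to their bound, the median was -1.44. Over all genes tested the median was -0.08. On slides 1 to 4 the Hbb-b1 difference was -0.06, -2.60, -1.40 and -3.74.

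X-ray alone gave no call either. In X-ray against control, 0 of the 5 tested members passed in limma and 0 had an unadjusted p under 0.05. Of all 15409 genes, 3.37% were called and 3375 had an unadjusted limma p under 0.05. Hbb-b1 had a log2 difference of 1.00 (95% interval -0.59 to 2.60, limma adjusted p = 0.465) and Alas2 of 1.09 (95% interval -1.12 to 3.29, limma adjusted p = 0.574). On the slides the Hbb-b1 difference was -2.77, 1.98, 1.2 and 3.6, so X-ray replicate 1 went against the other 3. The control arrays of this comparison also took part in the choice of the members, which favours higher values beside them. The median over the 8 measured members was 1.04, against -0.02 over all genes tested. Of the 8, 2 were not well above background in either group, and with dim groups set to their bound the median was 0.89. It was 1.97 without X-ray replicate 1 but 0.11 without X-ray replicate 4. Given the choice, nothing is read from these medians.

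The comparison of ALA plus X-ray with control shares its control arrays with the choosing difference. Of the 5 tested members, 0 passed in limma and 0 had an unadjusted p under 0.05. Of all 15409 genes, 24.8% were called and 6139 had an unadjusted limma p under 0.05. Hbb-b1, Hba-a1 and Alas2 nevertheless had all 4 ALA plus X-ray arrays below all 4 control arrays, against 11.6% of all genes with no overlap on the lower side. Their log2 differences were -0.95 (95% interval -2.54 to 0.65), -1.09 (-2.81 to 0.62) and -1.88 (-4.09 to 0.32). Klf1 had -0.73 (limma adjusted p = 0.131), and Slc4a1, which had 1 array well above background in each group, -0.12, a sign that turned under other scalings.

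For ALA against control the values are a description of how the members were chosen. The log2 difference was 2.25 for Hbb-b1, 2.39 for Hba-a1, 2.32 for Alas2, 1.96 for Slc4a1 and 0.13 for Klf1. The leading Hbb-b1 probe and Hba-a1 had no overlap on the higher side, where 3.19% of all genes had none. Another Hbb-b1 probe did overlap, with control replicate 1 at 6.27 and ALA replicate 4 at 6.18. In limma no gene of the 15409 passed in this comparison (0 genes; 963 had an unadjusted p under 0.05). Within slides, Hbb-b1 was higher with ALA by 1.36, 3.07, 2.30 and 2.27.

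At the leading probes of Hbb-b1, Hba-a1 and Alas2, every slide without X-ray had a higher level with ALA. With X-ray every slide had a lower one. For Hbb-b1 on slide 1 that difference was only -0.06, and 1 other Hbb-b1 probe read 2.48 with ALA and 2.47 without. The interaction value, the ALA difference with X-ray minus that without, was -4.2 for Hbb-b1, -4.65 for Hba-a1, -5.29 for Alas2, -3.70 for Slc4a1 and -1.28 for Klf1. In the limma fit 0 of the 5 tested members passed for this contrast, where 1.23% of all genes were called. The contrast contains the choosing difference, so nothing is read from that count or from the values.

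**Figure D2:**
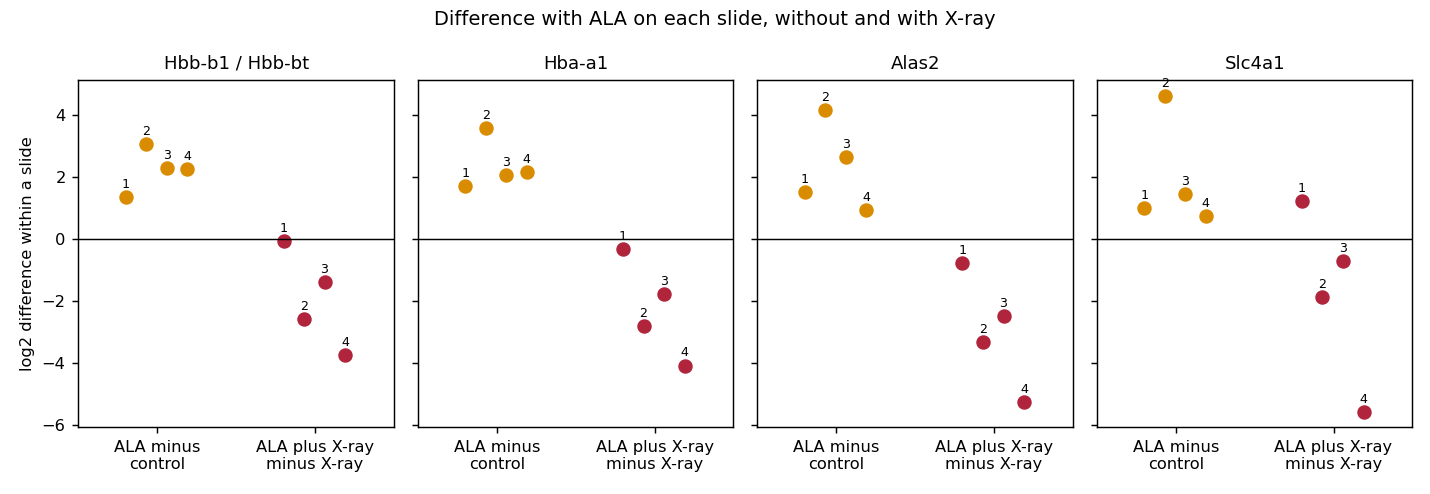
Log2 difference between the ALA and control arrays, and between the ALA plus X-ray and X-ray arrays, of the same slide, for 4 erythroid genes; digits are slide numbers. For Hbb-b1 the 4 differences without X-ray lie between 1.36 and 3.07 and the 4 with X-ray between -3.74 and -0.06.

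The globins and Alas2 followed each other tumour by tumour, beyond the difference between groups. Over 16 arrays the correlation with the leading Hbb-b1 probe was 0.99 for Hba-a1 (Spearman 0.98) and 0.97 for Alas2 (Spearman 0.96), with a permutation p of 1e-05 for each, the smallest that the permutations can give (adjusted over 7 members, 2.33e-05). Slc4a1 had 0.89 (Spearman 0.86, permutation p = 1e-05, adjusted 2.33e-05). The permutations over 16 arrays, here and for the dimmer members, ignored the groups. The members were chosen by the ALA against control difference, so these p-values partly reflect that choice. With values centred on the group means the correlation was 0.99 for Hba-a1, 0.95 for Alas2 and 0.93 for Slc4a1. Without X-ray replicate 4 and ALA replicate 2, the arrays farthest from the median Hbb-b1 level, it was 0.99, 0.95 and 0.85.

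The dimmer members followed less closely. Klf1 had a correlation of 0.63 (Spearman 0.55, permutation p = 0.00893, adjusted 0.0125) and Ahsp of 0.64 (Spearman 0.56, permutation p = 8e-04, adjusted 0.0014). Neither relation held in the alternatives. Without the 2 extreme arrays Klf1 had 0.53 (adjusted permutation p = 0.0972) and Ahsp 0.44 (adjusted permutation p = 0.154). Centred on the group means Klf1 had 0.50 (adjusted permutation p = 0.321) and Ahsp 0.69 (adjusted permutation p = 0.255). Epb4.2 (0.40, Spearman 0.34, adjusted permutation p = 0.144) and Gata1 (0.37, Spearman 0.41, adjusted permutation p = 0.156) were at background, where array-wide background can move probes together.

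**Figure D3:**
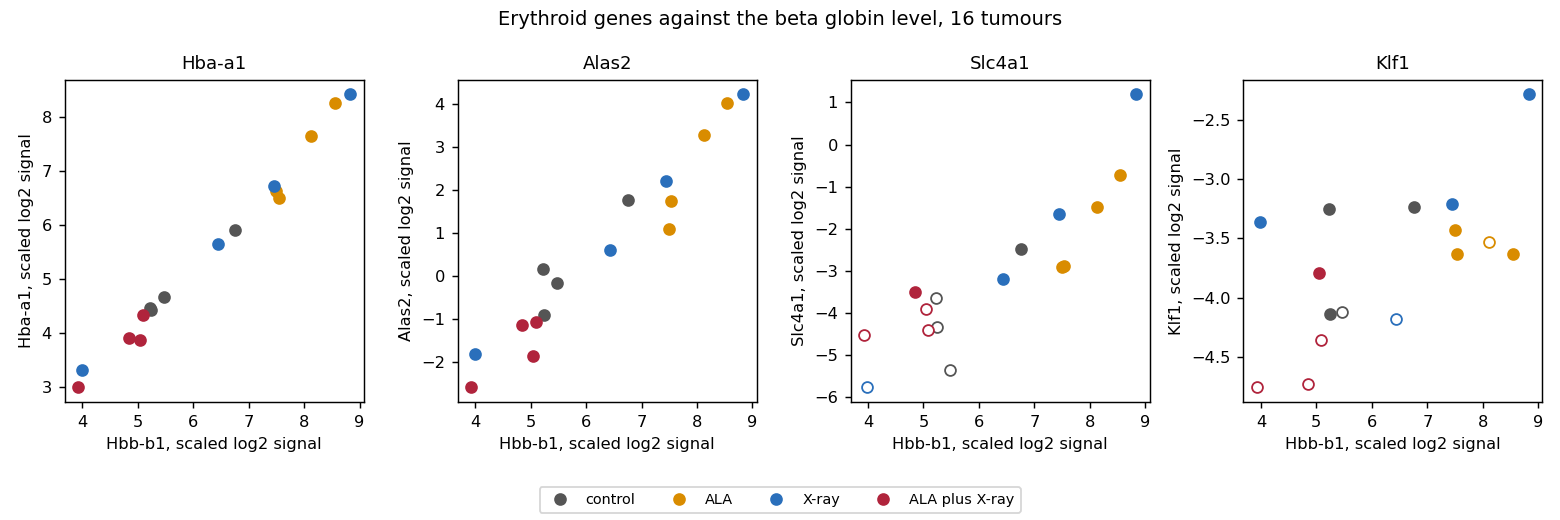
Scaled log2 signal of Hba-a1, Alas2, Slc4a1 and Klf1 against that of the leading Hbb-b1 probe on 16 arrays, coloured by group; open circles were not well above background. Hba-a1 and Alas2 lie close to a line (correlations 0.99 and 0.97) along which X-ray tumours take both the second-lowest and the highest place.

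The spread between X-ray tumours was wide for the globins and Alas2. From X-ray replicate 1 to replicate 4, Hbb-b1 ranged over 4.84 on the log2 scale (28.6-fold), Hba-a1 over 5.11 (34.4-fold) and Alas2 over 6.03 (65.3-fold). By this range Alas2 was 30th, Hba-a1 70th and Hbb-b1 93rd of 15409 genes, dim values of other genes included. Klf1 spread less, over 1.90 (rank 1376), though its lowest value, on X-ray replicate 3, was not well above background. No range is given for Slc4a1, whose lowest value, on X-ray replicate 1, was not well above background either. In the other groups the Hbb-b1 range was 1.54 (control), 1.06 (ALA) and 1.17 (ALA plus X-ray). Ranked over all 16 arrays by the leading Hbb-b1 probe, the order was X-ray 4, the 4 ALA arrays, X-ray 2, control 1, X-ray 3, the other control arrays, ALA plus X-ray 4, 3 and 2, X-ray 1 and ALA plus X-ray 1.

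The closest patterns outside the list were those of an alpha globin gene and an alpha globin pseudogene. Of 15404 genes compared by Pearson correlation over the 16 arrays, 2 exceeded 0.9, Hba-a2 (0.992), the near copy of Hba-a1, and Hba-ps4 (0.956), the pseudogene. The next were Sbno1 (0.88), Wnt6 (0.873), Hbb-y (0.872), the embryonic beta-like globin, Pcdhb5 (0.859), Zbtb34 (0.837), Zfp532 (0.836), Slc25a37 (0.835), the mitochondrial iron importer of red cell precursors, and Oxsr1 (0.831). Hba-a2 fell in irradiated ALA tumours against ALA alone (log2 difference -3.50, limma adjusted p = 0.00871), as did Hba-ps4 (-3.91, limma adjusted p = 0.0189, or 0.0524 without ALA replicate 2). Both were picked for following Hbb-b1 over these same arrays, so their fall comes with the picking and is no further support. Probes of near copies can bind each other's transcripts, so the alpha globin values are not separate measurements.

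The 250 bases before the transcription start were searched for motifs of erythroid factors, since the members vary together. RefSeq promoters (GRCm38.p6) were found for 6 of the 8 members, with Hbb-bt standing for beta globin. The GATA motif was AGATAA or AGATAG or TGATAA or TGATAG, the KLF1 motif CCNCNCCC and the CCAAT box CCAAT, each on both strands. Of 32851 promoter windows of this length, 26.5% held a GATA match, 45.9% a CCNCNCCC match and 33.8% CCAAT. Among the 6 members, 4 held a GATA match (Alas2, Hba-a1, Epb42 and Klf1), 3 a CCNCNCCC match (Alas2, Hbb-bt and Gata1) and 3 CCAAT (Hba-a1, Hbb-bt and Klf1). Alas2 alone of these 6 held both of the first 2 motifs, as 8.19% of all windows did; the window of Hbb-bs, the other beta globin gene listed by the leading probe, held both too. The windows of the 3 genes that passed are printed 5′ to 3′ with GATA and CCNCNCCC matches in capitals; the 4 CCNCNCCC matches of Alas2 lie 42 to 19 bases before the start, some overlapping each other, and none overlaps the GATA match 86 to 81 bases before it. The windows are chromosome 7, 103813924 to 103814173 (minus strand) for Hbb-bt, chromosome 11, 32283422 to 32283671 (plus strand) for Hba-a1, and chromosome X, 150547167 to 150547416 (plus strand) for Alas2.
Hbb-bt: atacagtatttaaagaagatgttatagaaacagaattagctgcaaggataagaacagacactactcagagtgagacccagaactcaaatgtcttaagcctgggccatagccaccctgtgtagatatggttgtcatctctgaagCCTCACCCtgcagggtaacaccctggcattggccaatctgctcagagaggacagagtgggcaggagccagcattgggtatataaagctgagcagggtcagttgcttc
Hba-a1: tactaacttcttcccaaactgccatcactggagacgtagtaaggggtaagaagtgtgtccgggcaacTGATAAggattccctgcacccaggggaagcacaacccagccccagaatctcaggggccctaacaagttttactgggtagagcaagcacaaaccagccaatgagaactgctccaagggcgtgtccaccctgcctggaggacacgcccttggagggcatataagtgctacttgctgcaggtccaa
Alas2: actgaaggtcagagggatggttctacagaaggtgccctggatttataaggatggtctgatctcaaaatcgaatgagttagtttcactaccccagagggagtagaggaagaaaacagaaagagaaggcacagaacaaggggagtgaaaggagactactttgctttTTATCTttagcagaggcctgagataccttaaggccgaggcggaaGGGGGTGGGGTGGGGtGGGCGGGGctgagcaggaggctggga

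In a wider list of 60 erythroid genes few passed. Of these, 58 were on the array and 41 were tested. With ALA plus X-ray against ALA, 2 rose and 5 fell (17.1% of the list, against 24.1% of all genes in either direction), with a median log2 difference of -0.27 against -0.13 over all genes. The embryonic globin Hbb-y fell by 2.45 (SE 0.59, limma adjusted p = 0.0125) and passed in all 17 alternatives. It read -3.20 (SD 0.43) in control, -1.15 (SD 0.91) in ALA, -2.24 (SD 1.46) in X-ray and -3.59 (SD 0.43) in ALA plus X-ray (group means, n = 4). Hbb-y was also among the genes closest to Hbb-b1 over these same arrays, and the list was chosen with earlier results known. Its fall beside the ALA arrays is therefore no further support. Whether its probe also binds adult beta globin transcripts was not tested. Also lower were Bpgm, which makes the hemoglobin effector bisphosphoglycerate (log2 difference -0.70, limma adjusted p = 0.0237), the erythroid transcription factor gene Tal1 (-0.56, 0.0253) and Slc25a38, a mitochondrial glycine carrier of heme synthesis (-0.75, 0.0279). Each of these 3 missed the threshold under several alternatives, among them the scaling to the array median. Tmod1, which caps actin filaments of the red cell skeleton, rose by 1.00 (limma adjusted p = 0.0132), and Mpp1, a palmitoylated membrane protein, by 0.41 (0.0118). The Tmod1 call held in all 18 alternatives, and the Mpp1 call was lost with median scaling (adjusted p = 0.0925) and with only the compared arrays fitted (0.0645).

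Between irradiated tumours with and without ALA, 1 of the 41 fell and 0 rose (2.44% of the list, against 2.07% of all genes). Epor, the erythropoietin receptor, fell by 0.57 (SE 0.11, limma adjusted p = 0.0281). The Epor call was lost when any 1 of replicates 2, 3 and 4 of either group was left out. The limma adjusted p was then 0.0708 to 0.098. In X-ray against control, 2 rose and 1 fell (7.32% of the list, against 3.37% of all genes). Tmod1 rose by 1.14 (limma adjusted p = 0.0295) and Icam4, a red cell adhesion molecule, by 0.65 (0.0266). Aqp1, a water channel also made by endothelium, fell (log2 difference -0.98, 0.0287). Each of these calls was lost when any 1 of 6 of the 8 arrays compared was left out. Between ALA plus X-ray and control tumours 2 rose and 6 fell (19.5% of the list, against 24.8% of all genes). The 2 that rose were Tmod1 (log2 difference 1.2, limma adjusted p = 0.00647) and Mpp1 (0.33, 0.0268). Among the 6 that fell, those with the smallest p were Slc25a38 (log2 difference -0.87, limma adjusted p = 0.0153), Tal1 (-0.59, 0.0205), the transferrin receptor gene Tfrc (-1.33, 0.0305) and Bpgm (-0.61, 0.0392). Of 18 alternatives, the call was lost in 12 for Bpgm, 8 for Mpp1, 7 for Tfrc, 6 for Tal1, 1 for Slc25a38 and 0 for Tmod1.

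Several other classical red cell genes were near background. The Rh-associated glycoprotein gene Rhag, the transcription factor gene Nfe2 and the embryonic globin gene Hbb-bh1 were well above background on 0 arrays. Ank1, the membrane ankyrin, was measured on 4 arrays, 3 of them in ALA plus X-ray and none of them in ALA. Fech, which inserts iron into heme, stood at 1.61 (SD 0.12) in control, 1.73 (SD 0.18) in ALA, 1.69 (SD 0.07) in X-ray and 2.15 (SD 0.63) in ALA plus X-ray, and passed in none of the 4 tested comparisons. Slc25a37 stood at 1.94 (SD 0.28), 2.37 (SD 0.46), 2.11 (SD 0.47) and 1.77 (SD 0.08) in the same order and passed in none.

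**Figure D4:**
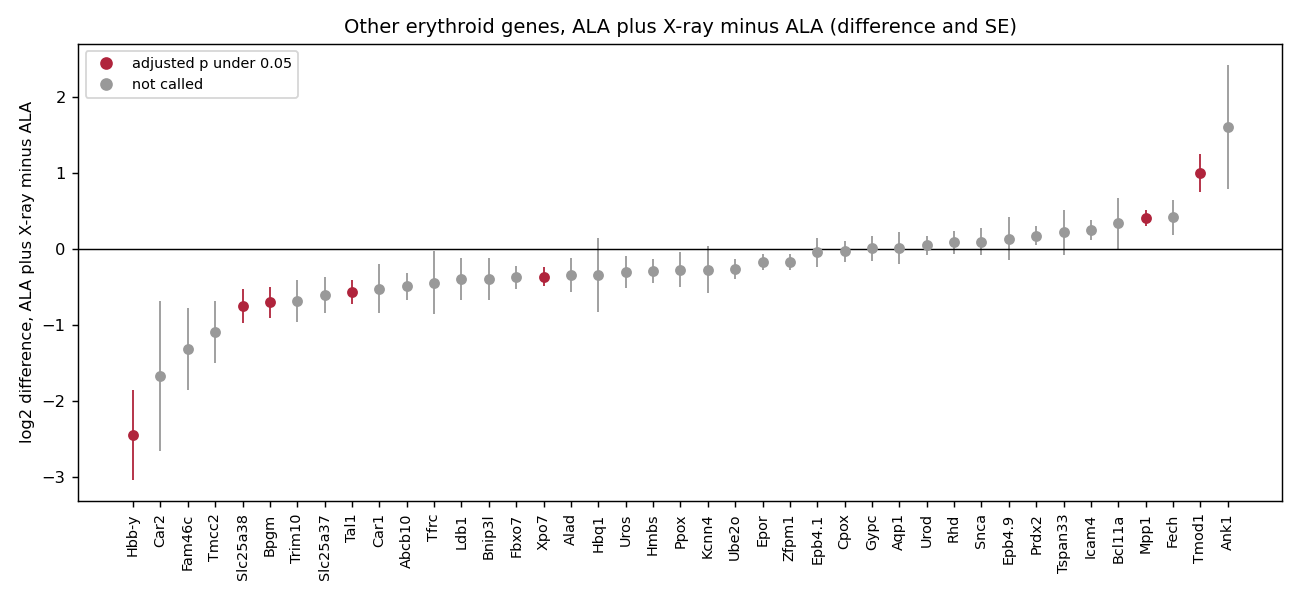
Log2 difference between ALA plus X-ray and ALA tumours with its SE for the 41 tested genes of the wider erythroid list, ordered by size; red points passed (limma, Benjamini-Hochberg). Hbb-y, at -2.45, lies lowest, and most other genes lie between -1 and 1.

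Macrophage markers moved against the globins over the 16 arrays, and the part of other cell types in the result was not tested. The summed level of 12 macrophage genes was lowest in ALA (log2 1.6 to 3.19) and highest in ALA plus X-ray (4.77 to 6.70), with 3.83 to 4.97 in control and 2.01 to 4.92 in X-ray. Over 16 arrays it correlated with Hbb-b1 at -0.80 (Spearman -0.85, permutation p = 2e-04, adjusted over 8 measures 0.0016), at -0.79 without X-ray replicate 4 and ALA replicate 2, and at -0.45 with values centred on the group means. Between 9 and 12 of the 12 genes were well above background on each array; Spic and Cd163, genes of red-cell-clearing macrophages, were so on 5 and 8 arrays. The 8 platelet genes ran from 1.13 to 2.83 in ALA and from 2.88 to 4.77 in ALA plus X-ray (correlation with Hbb-b1 -0.55, Spearman -0.67, permutation p = 0.0277, adjusted 0.111, and 0.0227 for Spearman; -0.01 with values centred on the group means), with Gp1ba, Gp5 and Itga2b well above background on 0 arrays.

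The remaining lists correlated with Hbb-b1 between -0.48 and 0.14, and none had an adjusted permutation p under 0.05. The 8 skeletal muscle genes ranged from -1.75 to 1.41 in ALA and from -1.23 to 8.49 in ALA plus X-ray (control -1.52 to 7.20), where 3 of 4 arrays had all 8 well above background. ALA plus X-ray replicate 1, at -1.23 with 2 of 8 detected, was the array with the lowest Hbb-b1 level. The 8 melanocyte genes were well above background on all 16 arrays, at 9.75 to 10.25, so the defining markers of the labelled tumour type were present. The neutrophil genes Camp and Ltf and the B cell genes Cd79a and Ms4a1 were well above background on 0 arrays. In bulk tumour RNA, fewer red cell precursors or reticulocytes and less RNA per cell cannot be told apart.

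**Figure D5:**
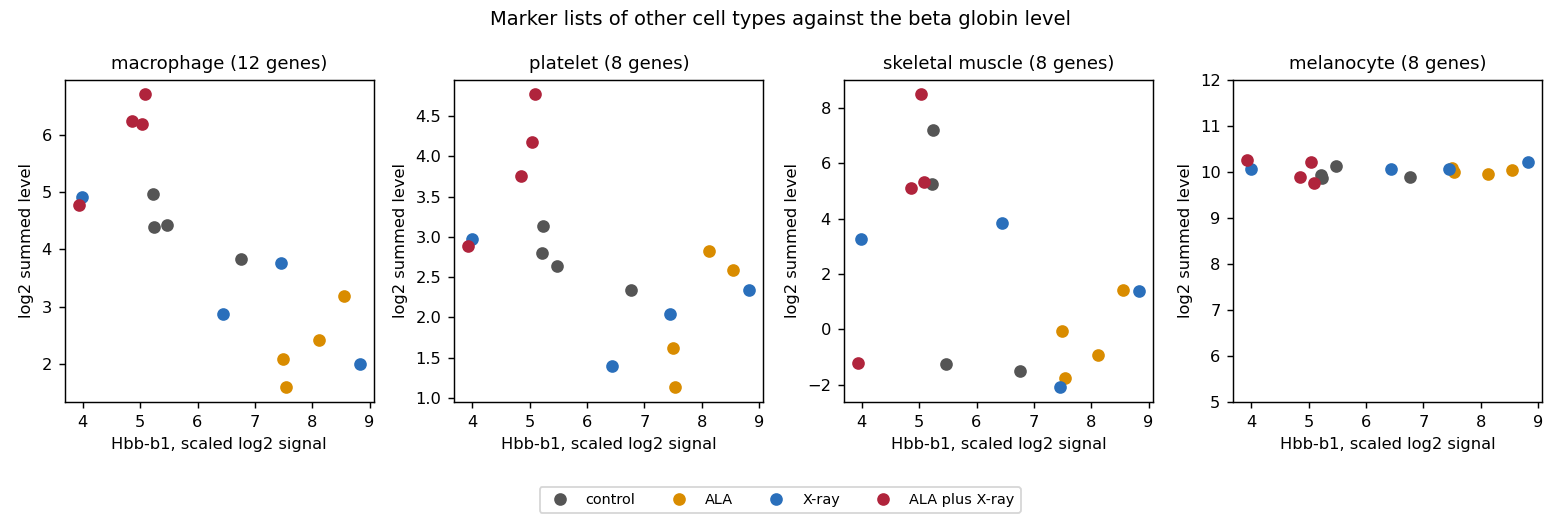
Log2 summed level of 4 marker lists against the scaled log2 signal of the leading Hbb-b1 probe on 16 arrays, coloured by group; vertical axes differ. Macrophage genes go down as Hbb-b1 goes up (correlation -0.80), and melanocyte genes stay between 9.75 and 10.25.

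Array brightness differed between groups: ALA plus X-ray arrays had a 75th percentile of 366 to 521 signal units, X-ray arrays of 224 to 478, ALA arrays of 217 to 331 and control arrays of 213 to 408, and 44.3% to 53.6% of spots were well above background. Its correlation with the Hbb-b1 level was -0.47 (Spearman -0.48, permutation p = 0.07, adjusted 0.112); its part in the result was not tested.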

How the data were processed

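Per the file headers, the deposited scanner files hold Cy3 intensity per spot on a linear scale, background-subtracted and detrended by Agilent Feature Extraction 10.7.3.1 (the submitters' processing notes name 9.5.3.1), and flags as other values. The authors' value table holds intensity normalised between arrays and served as an alternative. Here log2 processed signal was reduced by the array's 75th percentile, spots of a probe without outlier flags were averaged, probes well above background on at least 4 arrays were kept, and the probe of highest mean stood for its gene. Limma 3.58.1 (R 4.3.3) was fitted to 4 group means on all 16 arrays, with Benjamini-Hochberg adjustment at 0.05 over 15409 genes, and tested on simulated data. Correlations used 100000 permutations.

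Members and lists were chosen with earlier results of these data known. Named were all members, the wider-list genes that passed (up to 4 per direction and comparison by p), 12 further genes of that list whatever their values (some are not reported here), and the 10 genes closest to Hbb-b1. Alternatives were another background, scaling, table, filter, probe rule, block, weights and arrays. The slide number equals the replicate number. Same-numbered arrays' deviations from group means correlated at -0.46 to 0.54 (median 0.065). Those of differently numbered arrays correlated at -0.6 to 0.45 (median -0.005). Whether same-numbered tumours belong together by animal or day cannot be told from these values, and the main fit used no pairing.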

Additional observations from a re-analysis of the deposited data

Results flagged for a closer look

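In control tumours, replicate 1 stood apart from the other 3 arrays for both globins: its gap to the next array took 0.85 of the group's range for Hba-a1 and 0.838 for Hbb-b1, above Dixon's critical value of 0.829 for 4 samples. Chance flags about 1 group in 20, and 22 groups were looked at.

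The difference with ALA at the leading probe went in opposite directions without and with X-ray on every slide for 3 genes. With X-ray, that of Hbb-b1 on slide 1 was only -0.06. The interaction value was -5.29 for Alas2, -4.65 for Hba-a1 and -4.2 for Hbb-b1 on the log2 scale. In the limma fit 0 of the 5 tested members passed for this contrast, with 190 of 15409 genes called. It contains the difference by which the genes were chosen, so no support is drawn from it.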

How the results depend on the processing

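With ALA plus X-ray against ALA, 3 members were called with the replicate block, 4 with array weights and 5 when the 8 arrays compared were fitted alone, where Slc4a1 and Klf1 passed too; without single arrays the count was 3 to 3. With ALA plus X-ray set against X-ray, array weights gave 3 calls, and leaving out single arrays gave 0 to 3. The replicate block changed no call of a member. For Slc4a1 in ALA plus X-ray against control (-0.12) the sign turned with quantile scaling (0.02), the deposited table (0.14) and array weights (0.47), and was between -0.59 and 0.37 without single arrays; the cause was not tested.

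The number of all genes called moved more. In X-ray against control it went from 519 to 28 with median scaling (1 lower, against 212), 3 with no filter, 2957 with array weights and 1 to 836 without single arrays. Between ALA plus X-ray and X-ray it went from 319 to 521 with normexp, 11 with no filter, 2166 with weights, 1 in a fit on only these arrays and 3 to 3137 without single arrays; with median scaling 37 were lower, against 118. Between ALA plus X-ray and control it went from 3829 to 2134 with median scaling, 6445 with weights, 1604 on only these arrays and 1955 to 5956 without single arrays. Between ALA plus X-ray and ALA it went from 3715 to 1898, 6444, 1590 and 2164 to 5821. Counts in the wider erythroid list ranged from 0 to 10, 0 to 7, 2 to 15 and 2 to 13 in the same order, under alternatives chosen after seeing the data. Signals not well above background (Epb4.2 and Gata1 on all arrays, Ahsp on 14, Slc4a1 on 7 and Klf1 on 6) limit what these arrays show.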

Other observations

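Among the 41 tested genes of the wider erythroid list, 11 (26.8%) had a correlation over 0.5 with the Hbb-b1 level over the 16 arrays, where 11.6% of 15404 genes did. The arrays share their scaling, and genes are not independent replicates. Beside Hbb-y and Slc25a37 the closest, named after their values were seen, were Car2, a carbonic anhydrase abundant in red cells (0.83), Fam46c, a poly(A) polymerase gene (0.77), Abcb10, a mitochondrial transporter of red cell precursors (0.74), Bpgm (0.74) and Trim10, an erythroid finger protein gene (0.68). Tmod1 and Mpp1, which passed as higher in ALA plus X-ray tumours, had correlations of -0.19 and -0.53.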
